A study of Mus musculus with 6 samples.

Results

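The mRNAs of genes that write, read and erase DNA methylation were followed in neural stem/progenitor cells (NSC/NPCs) of the fetal mouse hypothalamus after high maternal estradiol. The group holds 9 genes, of 22048 in the deposited table, taken by name. Dnmt1, Dnmt3a, Dnmt3b and Uhrf1 place or maintain methyl groups on cytosine, Tet1, Tet2 and Tet3 oxidise them, and Mbd2 and Mbd3 belong to the methyl-CpG binding domain family. The 3 high estradiol samples (HE1 to HE3) came from fetuses of C57BL/6 dams, 8 weeks old, gavaged with estradiol valerate at 100 μg/kg per day from E5.5 to E11.5. The 3 control samples (NC1 to NC3) came from dams that were given corn oil alone on the same days, although the label of these samples reads untreated. In both groups hypothalami of male fetuses were dissociated at E14.5 and grown as neurospheres in EGF and bFGF, and first-passage cells of 2 mice made up each sample. The sources do not state whether the samples came from separate litters, so the p-values measure the spread between these 3 samples per group.

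In mammals, DNMT3A and DNMT3B set methylation on unmethylated CpG sites, and DNMT1 copies it to the daughter strand after replication. UHRF1 recognises the half-methylated sites behind the replication fork and brings DNMT1 to them. TET enzymes oxidise 5-methylcytosine to 5-hydroxymethylcytosine, which is abundant in the brain, and further to bases that thymine DNA glycosylase removes. MBD2 binds methylated CpG and MBD3 of mammals binds it weakly or not at all, and each can be a subunit of the NuRD chromatin remodelling and deacetylase complex.

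No member passed the adjusted threshold. Of the 9 mRNAs, 4 (Dnmt3a, Tet2, Tet3 and Mbd2) were lower in every HE sample than in every NC sample, whereas 17.9% of all 13952 tested genes had this pattern. None was higher in every HE sample, which held for 14.8% of the tested genes. At an unadjusted p under 0.05, Tet3 and Mbd2 were lower (2 of 9, against 11.8% of all tested genes) and 0 of 9 were higher (against 8.68%). At an adjusted p of 0.05 the limma fit called 0 of 9 members and 0% of all genes. Limma-voom on the read counts gave 0 and 2 members by the same 2 rules. The smallest adjusted p over all genes was 0.148 in limma, so the lack of calls is not particular to the members. By DESeq2 the paper reported differentially expressed mRNAs between these groups, some up and some down. This fit called none of them, and DESeq2 was not rerun here. The median log2 fold change (HE over NC) of the members was -0.05 beside -0.06 over all tested genes.

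HE3 stood apart from the other libraries. It had the fewest reads on genes (16078675, against up to 19137059 in NC2), and genes with long gene models (the deposited gene length) read lower in it. Among genes over 15000 bases its median log2 difference from the NC mean was -0.39, and among those up to 1500 bases it was 0.13, whereas HE1 ran from -0.07 to 0.14 and HE2 from -0.06 to 0.08 between these classes. Each member is therefore given with and without HE3. Neural progenitor markers were detected in every sample (12 of 12 tested, summed 2922.1 to 3621.4 RPKM in NC and 2872.0 to 4565.4 in HE). Most of these sums was Vim (1234.4 to 1802.7 RPKM) and Fabp7 (736.4 to 2382.8). Pax6 (2.30 to 4.55), Hes5 (2.14 to 6.18), Prom1 (1.81 to 5.70) and Msi1 (2.48 to 7.59) were low. Of the 12 markers, 4 had HE values all lower than the NC values and 0 all higher. Over all tested genes these shares were 17.9% and 14.8%. In HE3 Sox2 was the lowest of the 6 samples (97.3 RPKM, against 172.4 to 208.9) and Nes the highest (247.2, against 154.4 to 204.3). Markers of astrocytes (9 tested, summed 1146.1 to 1964.5 RPKM), oligodendrocyte lineage cells (8 tested, 291.0 to 514.6) and neurons (10 tested, 119.6 to 271.7) were detected as well. Olig1 (133.5 to 312.5) and Olig2 (97.7 to 182.0) made up most of the oligodendrocyte lineage sum, and both were highest in HE3. Of these 8 markers, 2 had log2 fold changes above 0 and 6 below (6 above and 2 below without HE3). Their median difference in HE3 was -1.17. Sox10 was at 1.65 RPKM in HE3 (13.0 to 15.4 in NC) and Mbp at 1.79 (11.8 to 22.2 in NC). Of the 9 astrocyte markers 4 were above 0 and 5 below, with Gfap at 195.1 RPKM in HE3 (624.1 to 753.8 in NC). Most of the neuron sum was Gap43 (66.3 to 202.0), Tubb3 (19.1 to 46.6) and Map2 (16.6 to 26.4). The neuron markers Dcx, Rbfox3, Snap25 and Syt1 were each at 0.579 RPKM or below, so these sums do not establish neurons. Markers of cells outside the neural lineage moved with the groups in part. The 10 microglial markers summed to 1.17 to 1.66 RPKM in NC and 3.21 to 10.9 in HE, and of 5 tested 2 had every HE sample above NC and 3 overlapped. The 8 endothelial markers summed to 2.69 to 3.74 RPKM in NC and 4.31 to 5.49 in HE, with 1 of 4 tested above NC in every HE sample. The 10 mesenchymal and pericyte markers summed to 64.0 to 157.5 RPKM in NC and 98.9 to 210.4 in HE, with log2 fold changes above 0 in 8 of 9 tested and a median of 0.55 (with HE3 left out, 0.82). None of these markers was at 0 in all 6 samples. The part of any other cell type in the members' values was not tested, and in bulk RNA fewer cells of a type and less RNA per cell cannot be told apart.

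**Figure D1:**
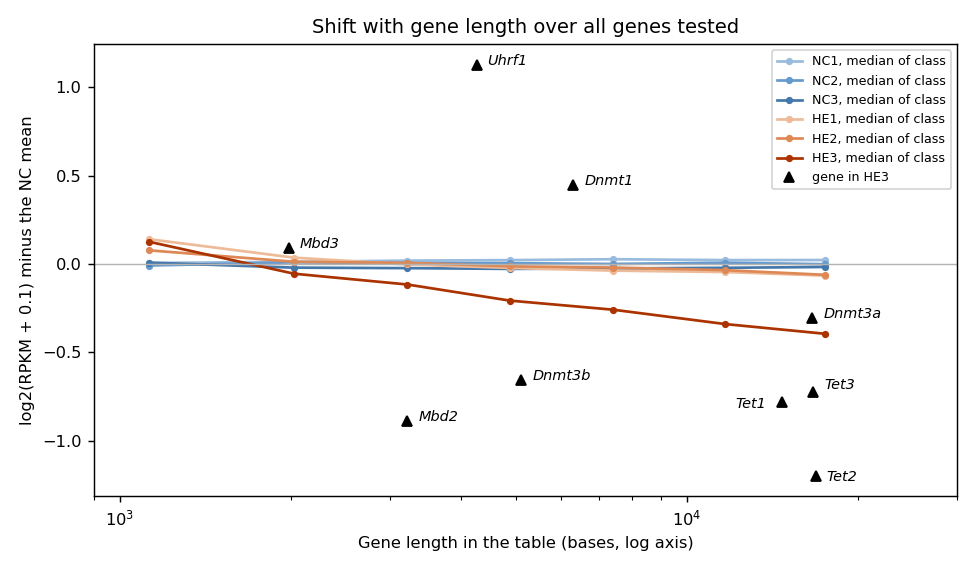
Median difference of each sample from the NC mean on the log2(RPKM + 0.1) scale, by class of gene length in bases (x axis), with the members' own HE3 values marked. HE1 and HE2 stayed within 0.14 of the NC mean in every class, and HE3 fell from 0.13 in the shortest class to -0.39 in the longest.

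Matches to an S phase promoter element were found in Dnmt1 and Uhrf1. RefSeq promoter windows of 300 bases (250 before and 50 after a start, GRCm38.p6) were at hand for 8 of the 9 genes, 13 windows in all. These were searched on both strands for TTTCGCGC and TTTGGCGC, which are forms of the element that E2F factors recognise in genes of S phase. Of these 8 genes, 2 (Dnmt1 and Uhrf1) held a match, in 1 window each. The matches are shown in capitals with up to 10 bases on either side, because these 2 members are compared with replication genes in the values that follow.
Dnmt1, 219 to 212 bases before a start at 20952623 (chr9:20952825-20952852, minus strand, TTTCGCGC on the opposite strand): gtttccgcgcGCGCGAAAaagccggggt
Dnmt1, 33 to 40 bases after the same start (chr9:20952574-20952600, minus strand): cggggcagcgTTTGGCGCgggctgtgc
Uhrf1, 185 to 178 bases before a start at 56304313 (chr17:56304118-56304145, plus strand): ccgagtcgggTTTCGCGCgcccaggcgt

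Both of these windows lie inside the annotated gene spans, at starts downstream of the first one, and exon or intron positions were not analysed here. Among all 32851 windows, 0.813% held at least 1 of the 2 motifs, and by gene the share was 0.929% of 27025. Among 16 replication genes chosen as an S phase list, 13 had windows and 7 of these held a match (53.8%). A match describes the letters in these windows and no binding was measured. The windows also differed in CpG number, which has a median of 7 over all windows. Tet2 had 57 CpGs, above 99.8% of windows, and the Dnmt3a windows had 46, 47 and 18. The matched Dnmt1 and Uhrf1 windows had 33 each.

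By transcript level, in RPKM (reads on a gene divided by the length of its gene model and by the sample's total), the maintenance pair led. Over the 6 samples the mean was 64.8 RPKM for Uhrf1 and 62.9 for Dnmt1. These 2 did not differ beyond their spread, and Uhrf1 exceeded Dnmt1 in 1 of 6 samples, HE3. Mbd3 followed at 39.1, Mbd2 at 19.7, Dnmt3a at 10.6 and Tet2 at 6.72 RPKM, and from Dnmt1 down to Tet2 the sample ranges of neighbours did not overlap. Tet3 (3.52), Tet1 (2.11) and Dnmt3b (0.962) were lowest, and the ranges of neighbours from Tet2 downwards overlapped, yet the order held within each of the 6 samples.

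**Figure D2:**
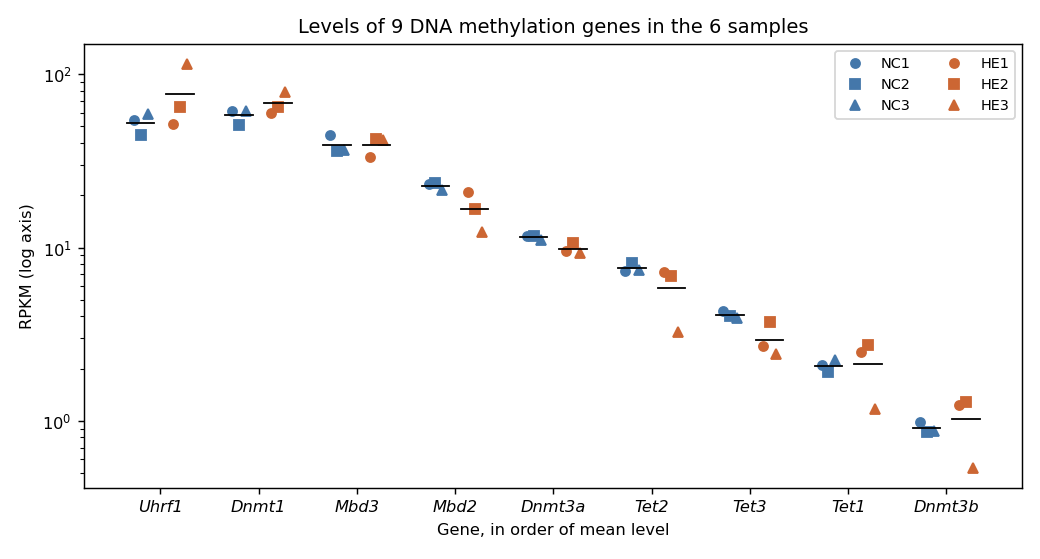
RPKM of each member in the 3 NC and 3 HE samples on a log axis, with the group means. Uhrf1 and Dnmt1 sit at 44.5 RPKM or more in every sample and Dnmt3b at or below 1.29, and Dnmt3a, Tet2, Tet3 and Mbd2 show no overlap between the groups.

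Dnmt1, the maintenance methyltransferase (chr9:20907206-20959888), was at 61.1, 51.3 and 61.3 RPKM in NC1 to NC3 and at 59.7, 65.0 and 78.9 in HE1 to HE3. The groups overlapped, since HE1 lay below 2 of the NC samples, and HE3 was the highest of the 6. The means were 57.9 ± 5.70 in NC and 67.9 ± 9.88 in HE (SD, n = 3 each here and below). The log2 fold change was 0.22 with a 95% confidence interval of -0.11 to 0.55 (limma, adjusted p = 0.363), and 0.11 without HE3. With 6192 to 7994 reads per sample, counting error was small beside this spread.

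Uhrf1, which brings DNMT1 to half-methylated sites (chr17:56303337-56323486), measured 54.3, 44.5 and 59.3 RPKM in NC and 51.6, 64.8 and 114.5 in HE. HE1 lay within the NC range and HE3 carried most of the difference, with a log2 value 1.13 above the NC mean. Within its class of gene length, that HE3 value stood at the 98.2 percentile of genes. In the fit Uhrf1 differed by 0.47 on the log2 scale with an interval of -0.20 to 1.14 (limma, adjusted p = 0.347), and it was 0.14 without HE3.

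These 2 mRNAs were set beside replication genes, because maintenance methylation is coupled to S phase. The summed RPKM of 16 S phase genes was 300.0, 243.8 and 325.1 in NC and 356.2, 388.5 and 617.8 in HE, so every HE sample was above every NC sample. In the fit 13 of the 16 were higher at an unadjusted p under 0.05, as were 8.68% of all tested genes, and 0 passed the adjusted threshold. Without HE3, 7 of the 16 were higher, against 9.35% of all genes. The median log2 fold change of this list was 0.61 (0.36 without HE3). By BrdU labelling, neurosphere counts and cell numbers, the paper reported less proliferation of HE cells. How the mRNA levels of this list relate to that was not tested. Mcm5, a subunit of the replicative helicase, went from 37.5 ± 6.61 to 68.1 ± 24.7 RPKM, a log2 difference of 0.82 (0.54 without HE3). Mcm2 differed by 0.71 (0.43 without HE3), Mcm4 by 0.65 (0.43) and Cdc6, which loads the helicase, by 0.66 (0.38).

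Relative to the S phase sum Dnmt1 was lower in HE, and relative to Pcna both maintenance mRNAs were. The S phase sum and Pcna were above NC in every HE sample, while Dnmt1 and Uhrf1 overlapped between groups. The lower ratios therefore largely restate the higher denominators. Dnmt1 equalled 20.4, 21.1 and 18.9% of the S phase sum in NC and 16.8, 16.7 and 12.8% in HE, with no overlap. The ratio of Dnmt1 to Pcna, the sliding clamp that also binds DNMT1, was 1.06, 1.14 and 0.993 in NC and 0.738, 0.820 and 0.586 in HE. For Uhrf1 the ratio to Pcna was 0.937, 0.985 and 0.961 in NC and 0.638, 0.817 and 0.851 in HE. Both ratios to Pcna were lower in all 3 HE samples than in any NC sample. Pcna itself was above the NC samples in every HE sample, at 57.9, 45.2 and 61.8 RPKM in NC against 81.0, 79.3 and 134.5 in HE, with a log2 difference of 0.81 (limma, adjusted p = 0.195), or 0.56 without HE3. The share of Uhrf1 in the S phase sum did overlap, at 18.1 to 18.3% in NC and 14.5 to 18.5% in HE, with HE3 the highest. The planned ratio of Uhrf1 to Dnmt1 overlapped as well, at 0.888, 0.867 and 0.968 in NC and 0.865, 0.996 and 1.45 in HE. The ratios to Pcna and the share of Uhrf1 in the S phase sum were not planned. All these ratios are descriptions and were not tested.

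**Figure D3:**
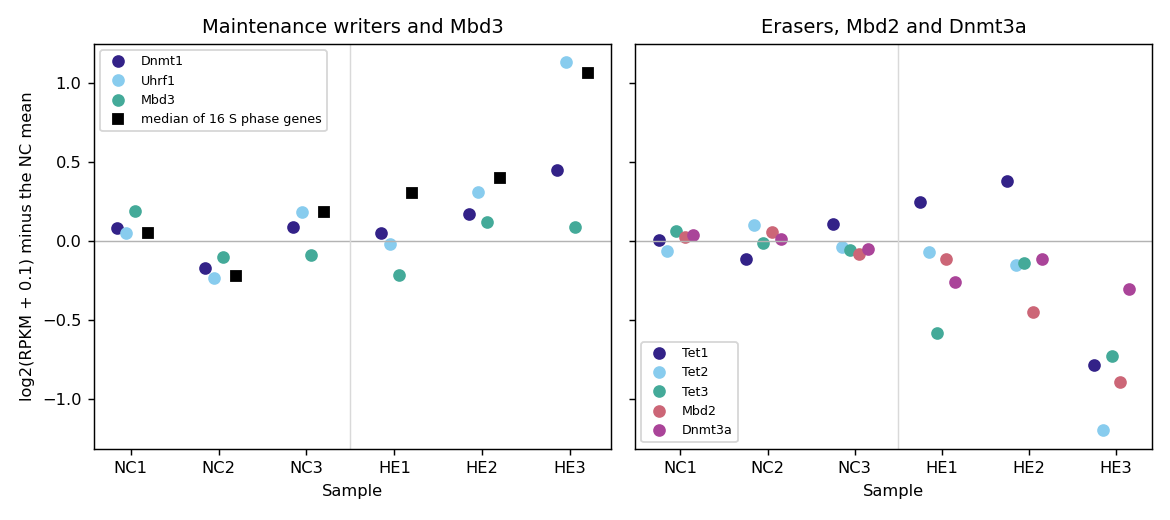
Difference of each sample from the NC mean on the log2(RPKM + 0.1) scale for 8 members, with the median of the 16 S phase genes as black squares. In HE3, Uhrf1 (1.13) lies near the S phase median (1.06) and Dnmt1 (0.45) below it. In HE1, Uhrf1 (-0.02) and Dnmt1 (0.05) both lie below the S phase median (0.30). Tet1 is above the NC mean in HE1 and HE2 (0.25 and 0.38) and below it in HE3 (-0.78).

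Dnmt3a, the main de novo methyltransferase mRNA of these cells (chr12:3801559-3914443), was at 11.7, 11.6 and 11.1 RPKM in NC and at 9.58, 10.6 and 9.26 in HE. All 3 HE samples lay below all NC samples, and the lowest was HE3. The SD was 0.344 RPKM in NC and 0.688 in HE, around a mean of 9.80 in HE. The log2 fold change was -0.22 with an interval of -0.48 to 0.03 (limma, adjusted p = 0.276), and -0.19 without HE3. The 16642 bases of its gene model place it in the longest class, whose median in HE3 was itself -0.39. The HE3 difference of Dnmt3a was -0.30, at the 57.3 percentile of that class, and after the length trend was taken off each sample its fold change was -0.05. In HE1, where the class median was -0.07, its difference was -0.26.

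Dnmt3b, the other de novo enzyme and more typical of the early embryo (chr2:153649411-153687730), was the lowest member. It was at 0.981, 0.860 and 0.868 RPKM in NC and at 1.24, 1.29 and 0.536 in HE. HE1 and HE2 lay above every NC sample and HE3 below every one. The values rest on 94, 84 and 84 reads in NC and 113, 126 and 44 in HE. The exact Poisson 95% interval of HE3, 0.389 to 0.719 RPKM, ended below those of HE1 (1.02 to 1.49) and HE2 (1.08 to 1.54). It overlapped those of NC2 (0.686 to 1.06) and NC3 (0.693 to 1.08). The interval of HE1 overlapped all 3 NC intervals, and that of HE2 overlapped that of NC1 (0.793 to 1.2). Such intervals cover counting error only. Dnmt3b had a log2 fold change of 0.08 with an interval of -0.68 to 0.84 (limma, adjusted p = 0.896). Without HE3 it was 0.45 (limma, unadjusted p = 0.0309, adjusted p = 0.219), the 1 member of 9 past an unadjusted 0.05 in that fit, in which 9.35% of all genes were called higher and 10.5% lower. The accessory factor Dnmt3l, which stimulates de novo methylation in germ cells, had at most 7 reads in a sample and was not tested.

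Dnmt1 took a larger share of the methyltransferase transcripts in HE. It made up 82.8, 80.5 and 83.7% of the summed RPKM of Dnmt1, Dnmt3a and Dnmt3b in NC and 84.7, 84.6 and 89.0% in HE. Dnmt3a made up 15.9, 18.1 and 15.1% in NC and 13.6, 13.8 and 10.4% in HE. Neither share overlapped between groups, and HE3 was the farthest from NC in both. The gene model of Dnmt3a has 16642 bases and that of Dnmt1 6304, and the length trend was not removed from these shares. The summed level of the 3 enzymes did overlap (63.7 to 73.8 RPKM in NC, 70.5 to 88.7 in HE).

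Of the erasers, Tet2 (chr3:133463677-133545136) was the most abundant. It was at 7.28, 8.18 and 7.43 RPKM in NC and at 7.27, 6.85 and 3.27 in HE. The groups were apart by the rounding between HE1 and NC1, and HE3 was far below the NC mean of 7.63 ± 0.483. The fitted log2 difference was -0.47 with an interval of -1.17 to 0.22 (limma, adjusted p = 0.360), and -0.11 without HE3. Its HE3 difference of -1.20 lay at the 9.2 percentile of the longest class of genes.

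Tet3, the TET enzyme of the zygote and of later neural tissue (chr6:83362373-83457208), was at 4.28, 4.05 and 3.93 RPKM in NC and at 2.69, 3.70 and 2.43 in HE. All HE samples lay below all NC samples, HE1 nearly as low as HE3. The means were 4.09 ± 0.178 and 2.94 ± 0.671. The log2 fold change was -0.48 with an interval of -0.92 to -0.05 (limma, unadjusted p = 0.0349, adjusted p = 0.223). It was -0.36 without HE3 and -0.31 with the length trend removed, and in neither did the unadjusted p stay under 0.05 (0.0645 and 0.0866 by limma). Its gene model has 16695 bases, and in HE3, where the median of that class was -0.39, Tet3 stood at the 25.2 percentile of the class.

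Tet1 (chr10:62804570-62887469) differed in direction between HE samples. It was at 2.09, 1.91 and 2.25 RPKM in NC and at 2.48, 2.73 and 1.17 in HE, with HE1 and HE2 above every NC sample and HE3 below every one. The log2 fold change was -0.05 with an interval of -0.79 to 0.68 (limma, adjusted p = 0.929). Without HE3 it was 0.31 (limma, unadjusted p = 0.0698), and in HE3 its difference of -0.78 stood at the 22.3 percentile of genes of like length. Across the 6 samples Tet1 and Dnmt3b were the most alike pair of members, with a root mean square difference of 0.12 between their log2 profiles centred on the NC mean. The least alike pair, Uhrf1 and Tet2, differed by 0.98.

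Summed over the 3 enzymes, Tet transcripts were at 13.7, 14.1 and 13.6 RPKM in NC and at 12.4, 13.3 and 6.87 in HE. Every HE sample was below the NC samples, by a small margin for HE2, while HE3 stood against an NC mean of 13.8 ± 0.296. Tet1 took a larger share of this sum in HE (20.0, 20.6 and 17.0%) than in NC (15.3, 13.5 and 16.5%), with no overlap. The shares of Tet2 and Tet3 overlapped between groups. The ratio of the methyltransferase sum to the Tet sum was 5.41, 4.51 and 5.38 in NC and 5.67, 5.79 and 12.9 in HE. The groups were apart, but HE1 and HE2 lay close to 2 of the NC samples. In HE3 the median of the length class was -0.34 for Tet1, -0.39 for Tet2 and Tet3, and -0.26 for Dnmt1. The length trend was not removed from the Tet sum, its shares or this ratio.

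Mbd2, a reader that recruits NuRD to methylated CpG (chromosome 18, 70568225 to 70629134), was at 23.2, 23.7 and 21.5 RPKM in NC and at 21.0, 16.7 and 12.3 in HE. No HE sample reached the lowest NC sample, HE1 being the nearest to it and HE3 the farthest. The means were 22.8 ± 1.12 and 16.7 ± 4.37. The log2 fold change was -0.48 with an interval of -0.94 to -0.03 (limma, unadjusted p = 0.0392, adjusted p = 0.229), and -0.28 without HE3 (limma, unadjusted p = 0.0542). With 3214 bases Mbd2 lies in a class whose HE3 median was -0.12, and its fold change with the length trend removed was -0.45 (limma, unadjusted p = 0.0327).

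Mbd3 (chr10:80392539-80399531), the paralog built into NuRD in place of MBD2, was at 44.4, 36.3 and 36.6 RPKM in NC and at 33.5, 42.4 and 41.5 in HE. The groups overlapped widely around the same mean (39.1 ± 4.59 and 39.1 ± 4.91). Its log2 difference was -0.00 with an interval of -0.33 to 0.33, and it was -0.05 without HE3. A change larger than the interval in either direction lies outside it. The ratio of Mbd3 to Mbd2 was 1.92, 1.53 and 1.7 in NC and 1.59, 2.54 and 3.38 in HE, with HE1 inside the NC range.

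**Figure D4:**
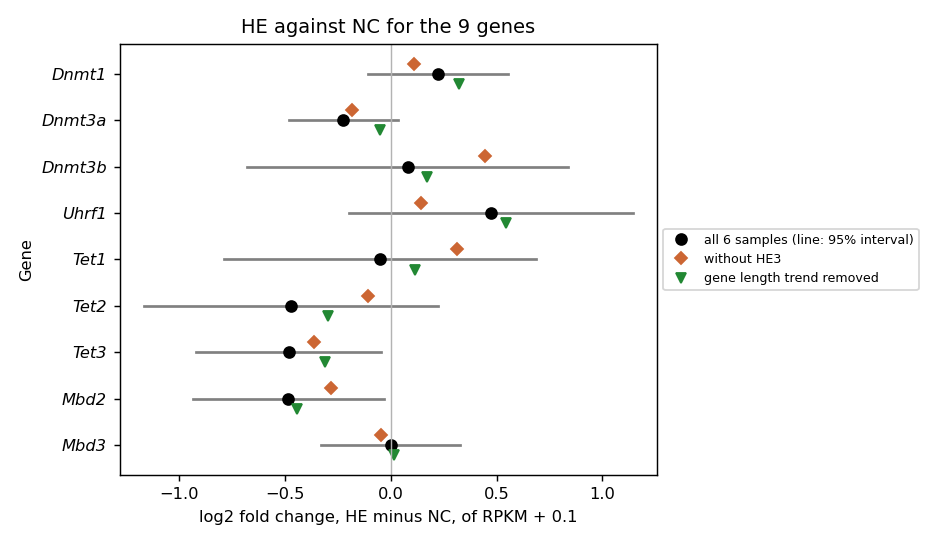
log2 fold change (HE over NC) of each member on the log2(RPKM + 0.1) scale with its 95% confidence interval from limma, beside the value without HE3 and the value after the length trend was removed. The intervals of Tet3 (-0.92 to -0.05) and Mbd2 (-0.94 to -0.03) lie below 0, and those of the other 7 members include 0.

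Genes whose profiles lay closest to a member were found over all tested genes as the smallest root mean square difference in NC-centred log2 values across the 6 samples. For Dnmt1 these were Mob3a (0.02), Fam98a (0.03) and Ruvbl2 (0.03). For Uhrf1 they were Trip13 (0.06), Mcm10 (0.08) and Tuba1b (0.08), of which Mcm10 takes part in the start of replication. For Tet1 they were Kazald1 (0.07), Ccl25 (0.08) and Tox2 (0.08). For Tet3 they were Prrc2b (0.03), Zfp335 (0.03) and Khsrp (0.05), and for Mbd3 Nploc4 (0.04), Trim28 (0.04) and Ube2j2 (0.05). Trim28 encodes the corepressor of KRAB zinc finger proteins.

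Partners of the members were counted in lists chosen by function, and no gene of any list passed the adjusted threshold in limma. At an unadjusted p under 0.05 in limma, 8.68% of all tested genes were higher and 11.8% lower (9.35% and 10.5% without HE3). Every HE sample lay above NC in 14.8% of tested genes and below it in 17.9%. Of 8 maintenance partners 7 were tested, 1 was higher at an unadjusted p under 0.05 (Pcna) and 0 were lower, and the median log2 fold change was 0.35 (0.20 without HE3). Cdca7l was at 4.33 to 6.32 RPKM in NC and 6.32 to 10.2 in HE, where HE2 exceeded NC3 only in digits not printed, with a log2 difference of 0.45 (0.24 without HE3).

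Other genes of the methyl-CpG binding domain family, listed together with zinc finger readers, lay on the same side as Mbd2. The family genes, Mbd5 and Mbd6 among them, were listed by domain, so binding to methylated CpG is not implied for each. All 8 tested genes had a log2 fold change below 0, from -0.86 to -0.02, as had 7843 of the 13952 tested genes. It was 7 of 8 with median-of-ratios scaling, with sample weights, with the length trend removed and without NC1, NC2, HE1 or HE3. The list had a median of -0.33 (-0.18 without HE3), and 4 genes had every HE sample below NC, as had 17.9% of all tested genes. Mbd1, a repressor that binds methylated CpG, was at 33.2, 35.6 and 24.7 RPKM in NC and 22.5, 22.2 and 17.8 in HE, a log2 difference of -0.57 (limma, unadjusted p = 0.0120, adjusted p = 0.195), or -0.46 without HE3. Zbtb4, a zinc finger reader, went from 9.09 ± 0.967 to 5.69 ± 2.23 RPKM, a log2 difference of -0.75 (limma, unadjusted p = 0.0448), or -0.37 without HE3. Mbd6 differed by -0.86 with 40 reads in HE3, and by -0.32 without it.

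Subunits of NuRD, with which MBD2 and MBD3 assemble, lay on both sides. Of 13 tested genes 3 were higher and 1 lower at an unadjusted p under 0.05, and the median was 0.02. This median was 0.10 without HE3, 0.14 without NC1 and -0.06 without NC2, and without HE3 3 were higher and 0 lower. The deacetylase Hdac2 was at 15.3, 14.9 and 16.2 RPKM in NC and at 19.6, 19.7 and 19.8 in HE, a log2 difference of 0.35 (limma, unadjusted p = 0.0081, adjusted p = 0.195). Cdk2ap1 differed by 0.56 (0.43 without HE3). The ATPase Chd4 was lower in all HE samples (62.4 to 86.0 RPKM, against 90.8 to 97.6 in NC) with a log2 difference of -0.32 (-0.18 without HE3), and Gatad2b differed by -0.45 (-0.24).

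TET enzymes use 2-oxoglutarate, which isocitrate dehydrogenases produce. Among 10 TET partners and 2-oxoglutarate enzymes, 4 were higher at an unadjusted p under 0.05 and 0 lower, with a median of 0.16 (0.19 without HE3). All 4 were isocitrate dehydrogenase genes, whereas Idh2, the most abundant of that family here, was at 144.4, 131.9 and 140.1 RPKM in NC and at 141.1, 118.5 and 90.8 in HE, a log2 difference of -0.27 (-0.10 without HE3). Idh1 was at 35.5, 33.2 and 42.8 RPKM in NC and at 55.9, 50.2 and 46.3 in HE, a log2 difference of 0.45 (limma, adjusted p = 0.195). Idh3a differed by 0.72, Idh3g by 0.39 and Idh3b by 0.29, each with every HE sample above NC. Unlike Uhrf1, Idh1 was lowest in HE3 among the HE samples.

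Of 14 genes of base excision, which follows oxidation by TET, 1 was higher and 2 were lower at an unadjusted p under 0.05, with a median of -0.05. The glycosylase Neil2 was at 1.88, 1.97 and 1.56 RPKM in NC and at 1.13, 0.570 and 0.193 in HE, the last from 6 reads, a log2 difference of -1.61 (limma, unadjusted p = 0.0120), or -1.06 without HE3. Gadd45b, a stress-response gene linked to demethylation, was at 58.7 to 108.7 RPKM in NC and at 51.0, 57.2 and 5.45 in HE, also -1.61, and that difference rested mostly on HE3 (-0.51 without it). Neil1 differed by -0.56 (-0.27 without HE3) and Gadd45a by -0.48 (-0.31).

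Methyl groups come from S-adenosylmethionine, which the folate cycle replenishes. Of 15 such genes 14 were tested, 3 were higher and 1 lower at an unadjusted p under 0.05, and the median was 0.24 (0.16 without HE3). Shmt1 differed by 0.71 (0.48 without HE3) and Mthfd1 by 0.45 (0.32). Gnmt, which consumes S-adenosylmethionine, was low, at 0.693 to 0.963 RPKM in NC and 0.155 to 0.522 in HE (3 to 22 reads), with a log2 difference of -1.01 (-0.59 without HE3).

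Readouts of methylation state were few. Of 14 germline genes that DNA methylation silences in somatic cells, 12 had at most 14 reads in a sample and were not tested. Among these, Tdrd1 was higher in every HE sample (8, 9 and 14 reads) than in NC (6, 1 and 5 reads). Brdt was at 2.31, 1.59 and 2.20 RPKM in NC and at 1.83, 0.994 and 0.559 in HE, a log2 difference of -0.92 (limma, unadjusted p = 0.0489, adjusted p = 0.243), and the groups overlapped. Without HE3 it was -0.54 (limma, unadjusted p = 0.106). Ddx4 had 18 to 25 reads in NC and 2 to 18 in HE. The list summed to 2.10 to 2.86 RPKM in NC and 0.799 to 2.26 in HE. Of 6 imprint protectors 4 were tested and 0 passed an unadjusted p of 0.05, with Zfp57 at -0.70 (limma, unadjusted p = 0.124, and -0.29 without HE3) and Ctcf at 0.10. DNA methylation itself was not measured in these samples.

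**Figure D5:**
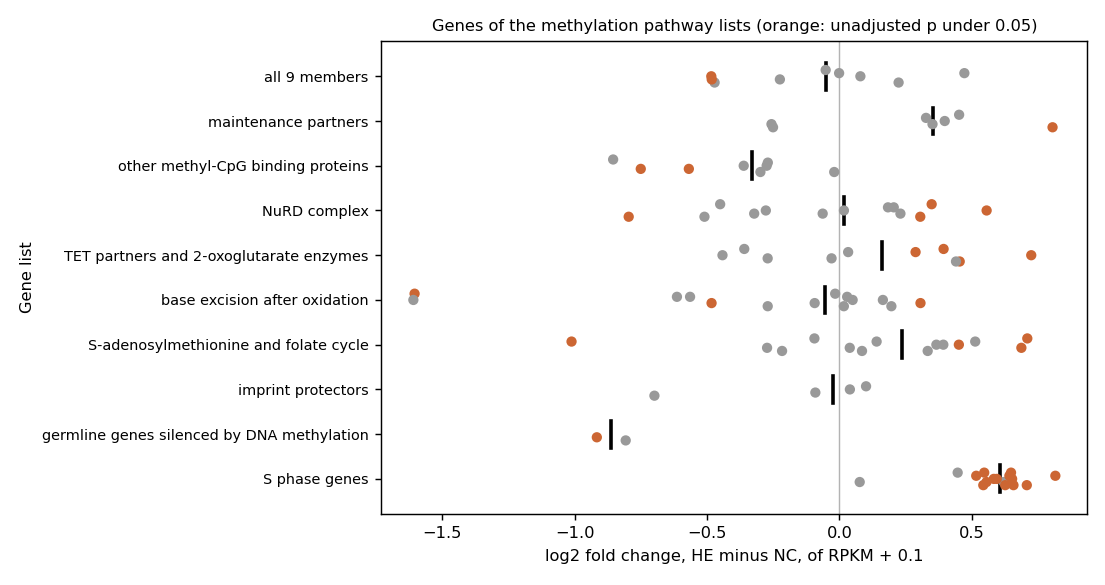
log2 fold change (HE over NC) of every tested gene in the members' group and the 9 partner lists, 1 point per gene, with each list's median. The 16 S phase genes lie above 0 (median 0.61, 15 of 16 above 0 without HE3). The 8 genes listed as other methyl-CpG binding proteins lie below 0 (median -0.33, 7 of 8 below 0 in several alternatives, median-of-ratios scaling among them). The median over all tested genes was -0.06.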

How the data were processed

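RNA-Seq of 6 samples was available as 1 table. The authors removed adaptor and low-quality reads, aligned the rest with TopHat2 (mm10 per the labels, where CASAVA 1.7 is named too) and tested counts with DESeq2. The counting tool and its use of strand are not given in the sources used here, so Mir7081 (in Dnmt1), Mir6374 and B230319C09Rik (Tet3) and lncRNA genes overlapping Dnmt3a, Tet1, Mbd2 and Mbd3 may share reads with them. The deposited table holds read counts, not normalized, and RPKM, which the authors made from count, gene length and sample total (recomputed to within 4.99e-07).

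Large counts are written with commas and were recorded under the unit other, so no count model other than limma-voom was run. RPKM was tested with limma 3.58.1 (R 4.3.3, mean-variance trend, group as the only term) on log2(RPKM + 0.1), on which scale fold changes of low genes are understated, with Benjamini-Hochberg adjustment and cutoffs of 0.05 and a log2 fold change of 1. Tested genes reached 10 reads per library of median size in at least 3 samples and 15 reads in total (13952 of 22048, with symbols for 21781 identifiers). Totals were 16078675 to 19137059 reads, and 1 read on 1 kilobase is 0.0523 to 0.0622 RPKM. The fit was tested on simulated data. Members and lists were chosen with earlier results of these data known. All 9 members were named, and from each list up to 4 genes with groups apart in order of fold change, or otherwise the smallest p. A few genes that this rule names are not reported here. Mbd5, Idh2, Dnmt3l, Tdrd1 and the cell type markers given by name (Sox2 and Nes among them) fall outside this rule and were named after their values were seen. Coordinates and promoter windows come from RefSeq, GRCm38.p6.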

Additional observations from a re-analysis of the deposited data

How the results depend on the processing

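In each of 15 alternatives 0 of 9 members passed an adjusted p of 0.05 in limma. Of 135 member fold changes under them, 123 kept their direction and 12 turned, all in Dnmt3b, Tet1 or Mbd3. The 123 include alternatives that could not turn a member. Another low-count filter or the replicate block leaves each member's fold change as it was. The number of members at an unadjusted p under 0.05, 2 as reported, was 1 with sample weights, in which HE3 weighed 0.158, and 1 with the length trend removed, and 3 (1 lower, 2 higher) with the length trend removed and HE3 left out, both alternatives chosen after seeing the data. It ranged from 0 to 2 when single samples were left out, with 0 without NC1, NC2 or NC3 and 1 without HE2 or HE3. Dnmt3b ranged from -0.12 to 0.45 when single samples were left out and was below 0 without HE1 or HE2. Tet1 turned positive with median-of-ratios scaling (0.0051), with sample weights (0.29), with the length trend removed (0.11), with that and HE3 left out (0.37), and ranged from -0.27 to 0.31 when single samples were left out. Mbd3 was 0.06 with median-of-ratios scaling and 0.013 with the length trend removed, and ranged from -0.063 to 0.11 when single samples were left out. The causes were not tested. Over all genes, 876 (6.28%) passed with sample weights and 105 (0.753%) without NC3, with 0 in the other alternatives. With a replicate block 2 members were at an unadjusted p under 0.05 and 0 at the adjusted one. Same-numbered samples correlated at 0.156, 0.0869 and 0.0603 in their deviations from the group means. Only 1 of the 3 exceeds 0.1, so the numbers were not read as pairs, although each sample correlated best with its own number. Of 135 list medians 125 kept their sign, and the replicate block could not change a median. At 44 reads in HE3, depth limits Dnmt3b most.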
